A study of Mus musculus with 17 samples.

Results

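Genes whose symbol begins with Kcn, followed by a subfamily letter and a number, encode the pore-forming and accessory subunits of potassium channels, and 93 of the 78298 genes in the deposited tables carry such a symbol. They were followed in 17 RNA-seq libraries from tissue labelled locus coeruleus of male C57BL/6 mice. Vindeburnol, a synthetic relative of the vinca alkaloids, had been given to the mice behind 5 libraries. VB-127, described in the labels as a derivative of it, had been given to those behind 6 libraries, and the remaining 6 came from untreated controls. Each compound was dosed by oral gavage in 0.1 ml, at 20 mg/kg once a day for 5 days, and tissue was collected 24 hours later. No control is labelled as gavaged without a compound, so an effect of the gavage and an effect of a compound cannot be told apart. Whether each library is a separate animal is not stated, and p-values here reflect only how far these samples scatter, which may be technical.

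Potassium channels let potassium ions leave or enter the cell along their gradient and so set the resting potential, shorten action potentials and space them in time. Voltage-gated channels are built from Kv, KCNQ or EAG-type subunits, while calcium and sodium entry opens a separate group, inward rectifiers pass current near rest, and tandem-pore (K2P) channels leak. In the locus coeruleus, inward rectifiers coupled to G proteins carry the inhibition that noradrenaline and opioids exert on its neurons, and in astrocytes an inward rectifier takes up potassium released by firing.

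The noradrenergic genes that define this nucleus were low in most libraries. The noradrenaline synthesis gene Dbh had a median of 1.08 TPM (transcripts scaled to gene length and to a fixed total per library, so that levels of different genes can be compared), and the transporter gene Slc6a2 a median of 0.300 TPM. Control replicates 1 and 6 were exceptions, with Dbh at 18.9 and 12.3 TPM and Slc6a2 at 8.94 and 4.15 TPM. No other library, treated or control, exceeded 2.57 TPM for Dbh or 0.929 TPM for Slc6a2. The part of this imbalance in the comparisons with controls was not tested. Genes of other cell groups had higher medians, at 45.5 TPM for the dopamine transporter gene Slc6a3, 74.2 TPM for the serotonin synthesis gene Tph2 and 204 TPM for the neuropeptide gene Cartpt. The levels below are therefore those of the dissected block, and in bulk tissue fewer cells of a type and less RNA per cell cannot be told apart. Bc1, a neuronal non-coding RNA, took 16.1% to 35.3% of a library's TPM, the most in control replicate 4. TPM keeps no read depth, so depth is unknown.

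Of the 93 genes, 70 reached 1 TPM in at least 5 libraries and were tested, and 60 reached 1 TPM in all 17. Means over the 17 libraries exceeded 100 TPM for 4 genes, lay between 10 and 100 TPM for 29, between 1 and 10 TPM for 33, and below 1 TPM for 27. The 4 highest genes held 37.1% of the summed level of the family and the 20 highest held 77.9%. Kcnab2, whose product is a cytoplasmic beta subunit of Kv1 channels, led with a mean of 213.5 TPM and a range of 170 to 272 TPM. It exceeded the next gene in 17 of 17 libraries. Kcnc1, which encodes a fast Kv3 pore, followed at 128 TPM, and Kcnj10, which encodes the astrocyte and oligodendrocyte inward rectifier, at 124 TPM. The order of these 2 was not stable, as Kcnc1 exceeded Kcnj10 in 11 of 17 libraries, with a mean log2 gap of 0.06 ± 0.17 (SD over libraries). Further down, the neighbours in rank from Kcnk1 at 53.8 TPM to Kcnip1 at 42.4 TPM kept their order in 9 to 13 of the 17 libraries.

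**Figure D1:**
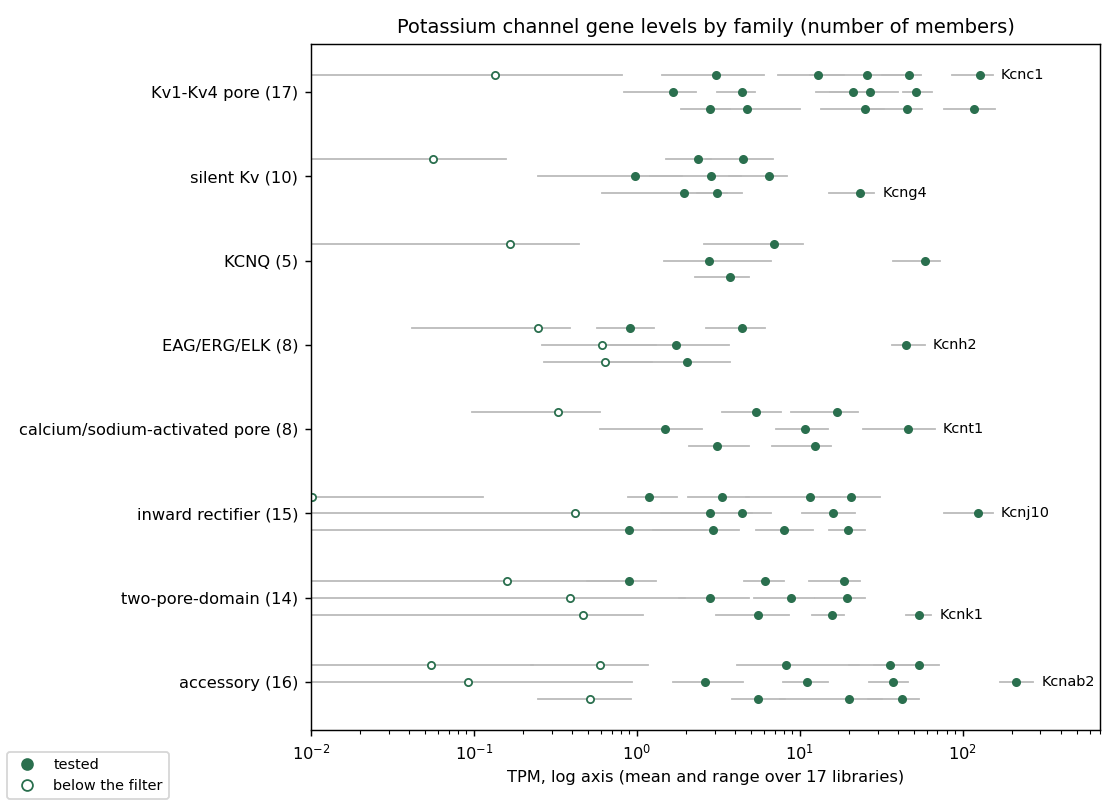
Mean (point) and range (line) of TPM over 17 libraries on a log axis for potassium channel genes with a mean inside the axis, by family, with the number of members in brackets; filled points were tested and open points lay below the filter. Kcnab2 stands at the right end, near 213.5 TPM, and leading genes of the families are labelled.

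Among the Kv1 to Kv4 pore genes, which number 17 with 15 tested, the summed level averaged 519 TPM. The Kv3 subfamily (letter c), typical of neurons that fire fast, gave 325 TPM of it through 4 genes, the lowest of them Kcnc2 at 27.1 TPM. In the Kv1 subfamily (letter a), found on axons, Kcna6 led at 46.9 TPM, and the range over its 8 genes ran down to Kcna7, which was listed at 0 in every library. Kcna1, mutated in human episodic ataxia, averaged 26.0 TPM with a range of 11.5 to 43.1 TPM. Kcnd3, an A-type Kv4 channel that paces dopaminergic neurons, averaged 25.1 TPM.

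The 10 electrically silent Kv genes, whose products modify Kv2 channels and do not conduct alone, summed to 45.8 TPM. Kcng4 alone stood at 23.4 TPM, ahead of Kcns3 at 6.51 TPM, Kcnf1 at 4.52 TPM and Kcnv1 at 0.971 TPM. The 5 KCNQ genes, which form the M-current, summed to 72.3 TPM, with Kcnq3 at 6.95 TPM. Of the 8 EAG, ERG and ELK genes, Kcnh2, the ERG channel known from cardiac repolarisation, stood at 45.1 TPM out of a sum of 55.7 TPM.

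The calcium- and sodium-activated pores summed to 96.6 TPM over 8 genes. Kcnt1, a sodium-activated channel, averaged 46.1 TPM and varied from 24.3 to 67.2 TPM. Among the small-conductance (SK) genes, which shape the afterhyperpolarisation, Kcnn2 averaged 17.04 TPM, Kcnn1 10.8 TPM and Kcnn3 5.38 TPM, while the large-conductance gene Kcnma1 averaged 12.5 TPM. Kcnu1, best known as a sperm channel, was present at 3.11 TPM on average, with a range of 2.10 to 4.89 TPM.

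The 15 inward rectifiers summed to 216 TPM, the largest share of it from Kcnj10. Kcnj11, the pore of the neuronal ATP-sensitive channel, averaged 19.8 TPM. Kcnj16, whose product joins that of Kcnj10 in a mixed channel, averaged 11.5 TPM, and the G-protein-gated gene Kcnj6 averaged 4.42 TPM. Kcnj8, the ATP-sensitive pore of pericytes, averaged 3.36 TPM, and Kcnj13, a choroid plexus channel, 0.418 TPM. The 14 K2P leak genes summed to 133 TPM and had the steadiest sum, with a coefficient of variation of 7.98% over libraries. Kcnk1 led them at 53.8 TPM, and Kcnk13, a leak channel of microglia, averaged 8.84 TPM.

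The 16 accessory genes summed to 432 TPM, of which the 3 beta-subunit genes (letters ab) gave 303 TPM. The KChIP genes (letters ip), whose calcium-binding products escort Kv4 channels, summed to 108 TPM with Kcnip1 first at 42.4 TPM. Kcne5, of the small single-pass KCNE family, averaged 11.1 TPM, and Kcnmb4, the neuronal beta subunit of the large-conductance channel, 5.55 TPM. Accessory genes also supplied the most untested members, 6 of 16.

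The 23 genes that were not tested had means of at most 0.640 TPM. They were Kcna7, Kcna10, Kcne1, Kcne2, Kcne3, Kcne4, Kcng3, Kcnh3, Kcnh4, Kcnh8, Kcnj1, Kcnj13, Kcnj15, Kcnk5, Kcnk7, Kcnk15, Kcnk16, Kcnk18, Kcnmb1, Kcnmb3, Kcnn4, Kcnq1 and Kcnv2. Kcne1, Kcnk18 and Kcna7 were listed at 0 in 17 of 17 libraries. Kcne1 and Kcnq1 together make the slow cardiac potassium current, and Kcnk18 is a channel of sensory ganglia. Kcnj13 reached 1.83 TPM in 1 VB-127 library and Kcnk15 reached 1.97 TPM in 1 control.

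By RefSeq annotation 10 pairs of these genes were immediate neighbours, and 9 pairs shared a subfamily letter. Their levels differed within pairs: Kcnj10 averaged 124 TPM beside Kcnj9 at 20.6 TPM on chromosome 1, and Kcnip1 averaged 42.4 TPM beside Kcnmb1 at 0.518 TPM on chromosome 11. On chromosome 6, Kcna6 at 46.9 TPM, Kcna1 at 26.0 TPM and Kcna5 at 2.82 TPM were adjacent. Kcnj16 at 11.5 TPM and Kcnj2 at 2.92 TPM, a strong inward rectifier, adjoined each other on chromosome 11.

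The summed level of all 93 genes was 1592 ± 159 TPM with vindeburnol (SD, n = 5), 1639 ± 179 TPM with VB-127 (SD, n = 6) and 1482 ± 220.3 TPM in controls (SD, n = 6). Control replicate 4 was lowest at 1087 TPM, the highest library had 1805 TPM, and the groups overlapped. With Bc1 taken out of the total, the sums became 2023 ± 76.3, 2071 ± 120 and 1956 ± 170.4 TPM in the same groups, and the coefficient of variation over libraries dropped to 6.56% from 12.1%. The spread of single genes was close to that of the transcriptome: the median SD of log2(TPM + 1) within groups was 0.27 for the 70 tested genes and 0.26 for all genes tested.

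Kcna1, Kcnip2, Kcna3, Kcnj4, Kcnip3, Kcnj6, Kcnj16, Kcnq3 and Kcng2 were among the 10 genes with the largest spread within groups. Kcnip2, a KChIP gene, measured 9.17, 9.13, 6.16, 8.67 and 6.95 TPM with vindeburnol, 5.91 to 12.3 TPM (median 7.26) with VB-127, and 4.11 to 23.1 TPM (median 6.29) in controls. The top value was control replicate 1, and the other controls ended at 7.68 TPM. Control replicate 1 was also highest of all libraries for Kcna3, a Kv1 gene of immune cells, at 6.06 TPM, for Kcnj16 at 17.6 TPM, for the inward rectifier Kcnj4 at 2.64 TPM and for the silent subunit Kcng2 at 3.56 TPM. With Kcnip2 that made 5 of the 9 named. Its mean log2 level of the Edinger-Westphal peptide neuron list (Cartpt and Ucn, both found, Ucn at 0 in this library) was 2.11, against 5.81 to 6.80 in the other 16 libraries. Its dopaminergic list was lowest at 2.53 and its noradrenergic list highest at 3.27. The part of such tissue differences in these channel levels was not tested.

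Control replicate 4, with the largest Bc1 share, was lowest in 6 of the 9 and in 41 of the 70 tested genes. With Bc1 removed from the total it was still lowest in 31 of the 70. Kcna1 measured 11.5 TPM there, against 43.1 TPM in control replicate 6. The G-protein-gated gene Kcnj6 measured 1.40 TPM in control replicate 4 and 1.40 to 5.89 TPM over the controls, a range that held 4 of the 5 vindeburnol libraries, at 5.08, 4.97, 3.41 and 3.09 TPM, with the other at 5.94 TPM. Kcnq3 ranged from 2.58 to 10.5 TPM in controls, and this range took in the 4.54 to 7.38 TPM of vindeburnol and the 5.22 to 9.34 TPM of VB-127.

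**Figure D2:**
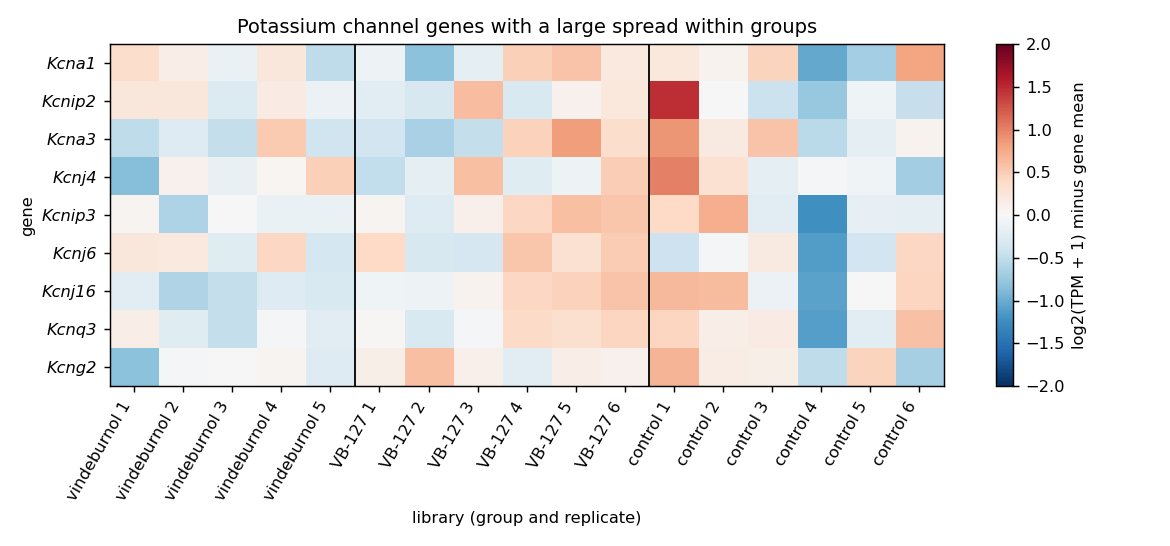
Heat map of log2(TPM + 1) minus the gene's mean for 9 of the 10 tested potassium channel genes with the largest spread within groups (rows) in 17 libraries (columns), with vindeburnol, VB-127 and control separated by lines. Control replicate 1 is highest in 5 rows and control replicate 4 lowest in 6 rows.

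The first comparison, vindeburnol against controls, looks for transcripts that respond to the compound. limma called 0 of the 70 tested potassium channel genes at an adjusted p under 0.05, and the share of all 16153 genes called was 0%. The smallest adjusted p among the 70 was 0.507. At an unadjusted p under 0.05 there were 2 genes above controls, where 6.95% of all genes were, and 1 below, where 1.22% were. Median-ratio scaling gave 5 above and 2 below, and leaving out 1 library gave 2 to 7 in all, with 7 without vindeburnol replicate 5 or control replicates 2 or 6. Here and in the comparisons below, the shares of all genes at that p are given for the main fit only. No gene separated the groups without overlap, against 0.458% of all genes above controls and 0.0619% below. A log2 difference above 0 was found for 48 of 70 genes, beside 69.7% of all genes, and the medians were 0.085 and 0.079. Both shares depended on the scaling, and with median-ratio scaling 37 of 69 and 50.7% of all genes lay above 0.

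The leading genes above controls came from several families. Kcng1, a silent subunit, measured 2.80, 4.07, 3.34, 4.34 and 2.85 TPM with vindeburnol, against 1.21 to 3.79 TPM (median 1.86) in controls. The vindeburnol libraries lay above 5 of the 6 controls, and control replicate 2 reached into their range. The log2 difference was 0.56 (SE 0.19, adjusted p 0.507 by limma), with 5 of 5 libraries above the control mean. It was 0.20 without control replicates 1, 4 and 6 together, a setting chosen after seeing the data, and 0.35 with the dopaminergic, serotonergic and noradrenergic marker lists as covariates.

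Kcnj12, a strong inward rectifier, measured 10.9, 12.0, 8.44, 9.66 and 7.47 TPM with vindeburnol, against 5.43 to 8.92 TPM (median 6.81) in controls. Of the 5, 3 exceeded the highest control. Its log2 difference was 0.45 (SE 0.15, adjusted p 0.507).

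Kcnc2, Kcnd3 and the SK gene Kcnn1 followed at 0.39, 0.35 and 0.28 on the log2 scale (adjusted p 0.609 to 0.612). Kcnc2 averaged 30.1 ± 8.14 TPM with vindeburnol (SD, n = 5) and 22.9 ± 5.91 TPM in controls (SD, n = 6). Kcnd3 averaged 28.2 ± 4.92 TPM with vindeburnol and 22.1 ± 4.60 TPM in controls. For both, control replicate 4 held the lowest value, at 12.7 TPM for Kcnc2 and 13.6 TPM for Kcnd3, and without that library both differences were 0.23. With library weights they were 0.19 and 0.17, and without the 3 controls named above 0.20 and 0.18. Kcnn1 averaged 12.2 ± 1.83 TPM with vindeburnol and 9.93 ± 1.80 TPM in controls.

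On the other side, Kcnk13 measured 5.25, 7.40, 6.00, 9.39 and 7.89 TPM with vindeburnol, against 6.22 to 12.2 TPM (median 9.78) in controls. The groups overlapped, although 5 of 5 vindeburnol libraries lay below the control mean. The log2 difference was -0.34 (SE 0.16, adjusted p 0.609), and -0.15 with the 3 neuronal lists as covariates. The 6 microglial markers, all found and none at 0, summed to 144 to 193 TPM with vindeburnol and 141 to 221 TPM in controls; their part in the difference was not tested.

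Kcnj16 followed at -0.47 (SE 0.23, adjusted p 0.617; -0.23 with those covariates) and Kcnj8 and Kcna3 at -0.22 and -0.38, with adjusted p of 0.723 and 0.733. The covariates brought these 2 to -0.37 and -0.11, Kcnj8 was at -0.15 without vindeburnol replicate 1, and Kcna3 was at -0.24 without control replicate 1. Kcna3 measured 4.52 TPM in vindeburnol replicate 4 and 1.70 to 2.18 TPM in the other 4 vindeburnol libraries, within the 1.64 to 6.06 TPM of controls. By family, 13 of 15 Kv1 to Kv4 genes, 6 of 8 silent genes and 2 of 5 EAG, ERG and ELK genes lay above 0. The share of all genes was 69.7%. With quantile normalization these became 9 of 15, 5 of 8 and 1 of 5, beside 48.9% of all genes. In the main fit, 2 of 4 KCNQ genes, 5 of 7 calcium- and sodium-activated pores and 7 of 12 inward rectifiers lay above 0. So did 7 of 9 leak genes and 6 of 10 accessory genes.

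VB-127 against untreated controls asked the same of the derivative. limma called 0 of the 70 tested potassium channel genes, while the share of all genes called was 0.00619%, a single gene. The smallest adjusted p among the 70 was 0.470. At an unadjusted p under 0.05 there were 5 genes above controls, with 9.67% of all genes, and 1 below, with 0.532%. Median-ratio scaling gave 0 above and 2 below, and leaving out 1 library gave from 1 in all, without VB-127 replicate 4, to 12, without VB-127 replicate 2. No gene separated the groups, against 0.656% of all genes above controls and 0.0124% below. Differences above 0 were found for 61 of 70 genes, beside 79.4% of all genes, with medians of 0.10 and 0.11. This count was 39 of 69, beside 52.3% of all genes, with median-ratio scaling (all-gene median 0.0075). Without control replicate 4 it was 42 of 70, beside 67.3% of all genes. The share of channel genes above 0 was thus higher than that of all genes in the main fit, but lower without that library.

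Kcng4 measured 23.4 to 28.7 TPM (median 25.4) with VB-127, against 15.1 to 28.3 TPM (median 21.0) in controls. The 6 VB-127 libraries exceeded 5 of the 6 controls, and control replicate 6 lay inside their range. The log2 difference was 0.29 (SE 0.12, adjusted p 0.470), and 0.17 with median-ratio scaling. Control replicate 6 also had the highest inhibitory neuron list, at a mean log2 level of 6.87 against 5.96 to 6.34 elsewhere. Among the 5 genes of that list, Slc6a5 stood out there, at 27.3 TPM against 0.684 to 6.88 TPM in the other libraries. Pvalb was also highest there, at 282 TPM, but Gad1, at 205 TPM, lay below its median of 221 TPM. Gad2 and Slc32a1 lay within the range of the other libraries.

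Kcng1, the gene that led the vindeburnol comparison, averaged 3.05 ± 0.539 TPM with VB-127 (SD, n = 6) and 2.13 ± 1.00 TPM in controls (SD, n = 6), a log2 difference of 0.42 (SE 0.18, adjusted p 0.470). It was 0.059 without control replicates 1, 4 and 6 and 0.22 with the neuronal lists as covariates. The control libraries are the same in both comparisons. Kcnab2 averaged 226 ± 28.3 TPM with VB-127 and 197 ± 19.9 TPM in controls, a log2 difference of 0.19 that came to 0.07 with median-ratio scaling. Kcnj11 averaged 21.5 ± 2.29 TPM with VB-127 and 18.1 ± 3.11 TPM in controls. Kcnk4, a mechanosensitive leak channel, averaged 6.37 ± 1.18 TPM with VB-127 and 4.95 ± 1.31 TPM in controls. The log2 differences of Kcnj11 and Kcnk4 were 0.25 and 0.32, and adjusted p for these 3 genes ran from 0.479 to 0.484. With median-ratio scaling Kcnj11 was at 0.13, and Kcnk4 was at 0.091 without control replicates 1, 4 and 6 and at 0.19 with quantile normalization.

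Kcna5, a Kv1 gene of heart and vessels, was the lone gene below controls at an unadjusted p under 0.05. It measured 1.87 to 2.77 TPM (median 2.25) with VB-127, against 2.31 to 3.42 TPM (median 3.27) in controls. All VB-127 libraries lay below 5 of the 6 controls, the exception being control replicate 2 at 2.31 TPM. The log2 difference was -0.32 (SE 0.13, adjusted p 0.470), and it was -0.41 with median-ratio scaling.

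Among the other genes below controls, the leak channel genes Kcnk10 (adjusted p 0.597) and Kcnk6 (adjusted p 0.800) stood at -0.24 and -0.10 on the log2 scale. Kcnk10 was at -0.14 without control replicate 6 and -0.37 with quantile normalization, and Kcnk6 ranged from -0.26 to -0.056 over the alternatives, the end nearer 0 without control replicate 3. Kcna3 averaged 3.17 ± 1.74 TPM with VB-127 and 3.50 ± 1.61 TPM in controls, and the beta-subunit gene Kcnab1 35.3 ± 5.86 and 38.3 ± 13.2 TPM in the same order. Their differences of -0.14 and -0.06 took the other sign without control replicate 1, at 0.00633 and 0.039, and that of Kcnab1 also without VB-127 replicate 2 (0.031) or control replicate 6 (0.059). All 8 silent genes, 5 of 5 EAG, ERG and ELK genes and 4 of 4 KCNQ genes lay above 0, beside 79.4% of all genes. With quantile normalization 3 of 8, 1 of 5 and 2 of 4 did, beside 49.0% of all genes. In the main fit, 13 of 15 Kv1 to Kv4 genes, 6 of 7 calcium- and sodium-activated pores and 10 of 12 inward rectifiers lay above 0. So did 7 of 9 leak genes and 8 of 10 accessory genes.

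**Figure D3:**
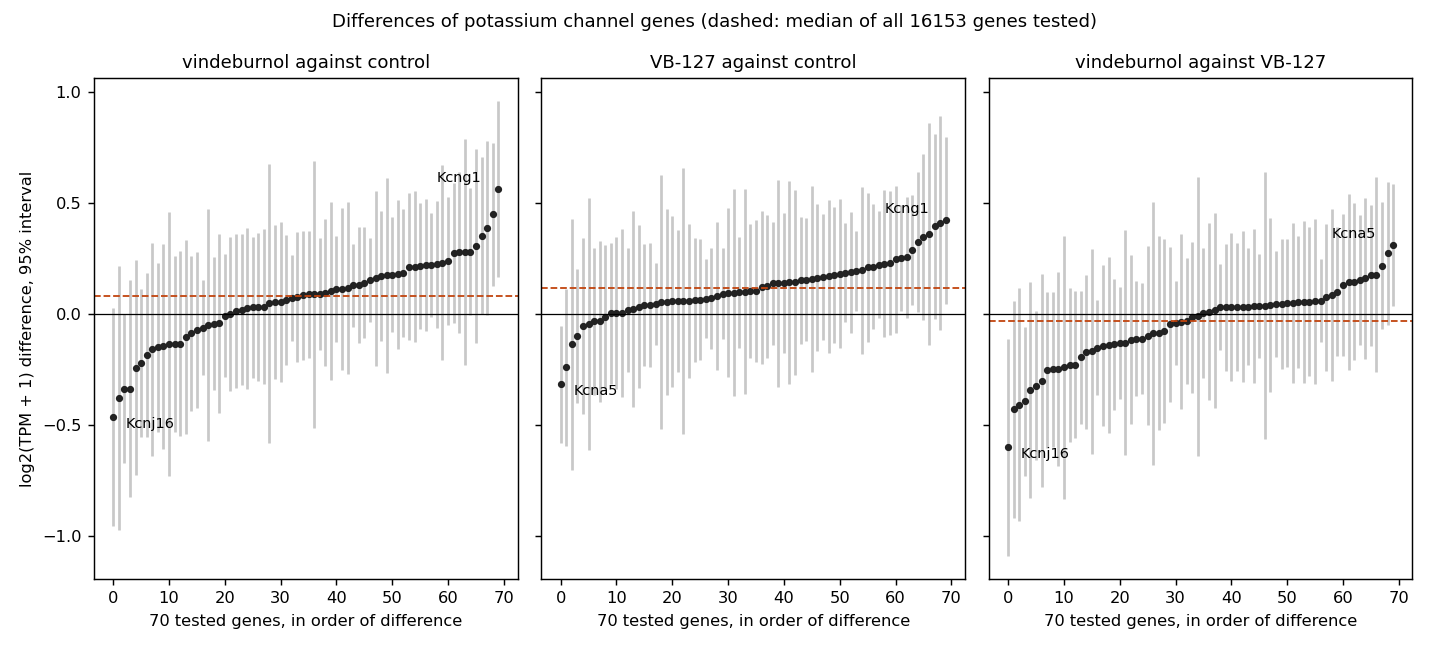
Differences in log2(TPM + 1) with 95% intervals for the 70 tested potassium channel genes, ordered by size, in 3 panels (vindeburnol against control, VB-127 against control, vindeburnol against VB-127); the dashed line is the median of all 16153 genes tested. The points run from -0.47 to 0.56, -0.32 to 0.42 and -0.60 to 0.31 in the 3 panels.

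Vindeburnol and VB-127, given at the same dose and time, form the single pair of compounds compared. limma called 0 of the 70 potassium channel genes and 0% of all genes, and the smallest adjusted p was 0.9999. At an unadjusted p under 0.05, 1 gene was above VB-127, with 0.891% of all genes, and 2 were below, with 2.49%. Median-ratio scaling gave 3 above and 2 below, and leaving out 1 library gave from 1 in all, without vindeburnol replicate 1, to 5, without vindeburnol replicate 2. Differences above 0 were found for 35 of 70 genes, beside 38.9% of all genes, and for 37 of 69, beside 50.4%, with median-ratio scaling. The 95% interval of the log2 difference lay within 1 in either direction for 69 of the 70 genes, with a median half-width of 0.35. Most differences between the compounds were therefore bounded at 1 unit of log2(TPM + 1). For genes of low TPM this does not bound the fold change, because of the 1 added to each value. The data do not show that the compounds act alike. In each comparison with controls, the interval lay within 1 for 70 of 70 genes.

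Kcnj16 was the exception, and the only one of the 70 whose groups did not overlap, beside 0.285% of all genes lower in that way. It measured 9.13, 6.80, 7.50, 8.92 and 8.59 TPM with vindeburnol, and 10.1 to 16.7 TPM (median 13.2) with VB-127. Controls spanned both, at 4.67 to 17.6 TPM (median 12.9). The log2 difference between the compounds was -0.60 (SE 0.23, 95% interval -1.09 to -0.11, adjusted p 0.9999 by limma), with 5 of 5 vindeburnol libraries below the VB-127 mean. Kcnj10, whose product shares a channel with that of Kcnj16, averaged 123 ± 25.4 TPM with vindeburnol (SD, n = 5) and 126.9 ± 23.5 TPM with VB-127 (SD, n = 6). The 6 astrocyte markers, all found and none at 0, summed to 394 to 543 TPM with vindeburnol and 405 to 579 TPM with VB-127; their part in the difference of Kcnj16 was not tested.

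Kcnk13 had a log2 difference of -0.40 (SE 0.16), or -0.18 with the neuronal lists as covariates, at 7.19 ± 1.62 TPM with vindeburnol and 9.65 ± 1.18 TPM with VB-127. The microglial markers summed to 144 to 193 TPM with vindeburnol and 149 to 195 TPM with VB-127, and their part was not tested. Kcnj8 averaged 2.80 ± 0.674 TPM with vindeburnol and 3.76 ± 0.857 TPM with VB-127, a log2 difference of -0.32. The 6 pericyte and smooth muscle markers, all found, summed to 133 to 149.8 TPM with vindeburnol and 150.0 to 207 TPM with VB-127, so the sums nearly touched but did not overlap. Vtn alone gave 69.5 to 91.2 TPM of the sum with vindeburnol and 77.2 to 122 TPM with VB-127. The mean log2 level of the list did overlap, at 3.706 to 3.911 with vindeburnol and 3.701 to 4.189 with VB-127. The part of the list in Kcnj8 was not tested.

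Kcnip3, a KChIP that also binds DNA, averaged 17.2 ± 3.07 TPM with vindeburnol and 23.3 ± 5.41 TPM with VB-127, a log2 difference of -0.41. In the other direction Kcna5 measured 3.37, 2.68, 3.07, 3.74 and 2.62 TPM with vindeburnol, against 1.87 to 2.77 TPM (median 2.25) with VB-127. Of the 5 vindeburnol libraries 3 exceeded every VB-127 library, and the log2 difference was 0.31 (SE 0.13). Kcnj12, Kcnn1, Kcnh1 (an EAG channel gene) and the G-protein-gated gene Kcnj5 followed with 0.27, 0.22, 0.17 and 0.15. Library weights brought Kcnj12 to 0.13, the covariates brought Kcnn1 to 0.33, and without vindeburnol replicate 2 Kcnh1 was at 0.11 and Kcnj5 at 0.094; a pseudocount of 0.1 gave 0.25 for Kcnj5. The adjusted p of all these genes was 0.9999.

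**Figure D4:**
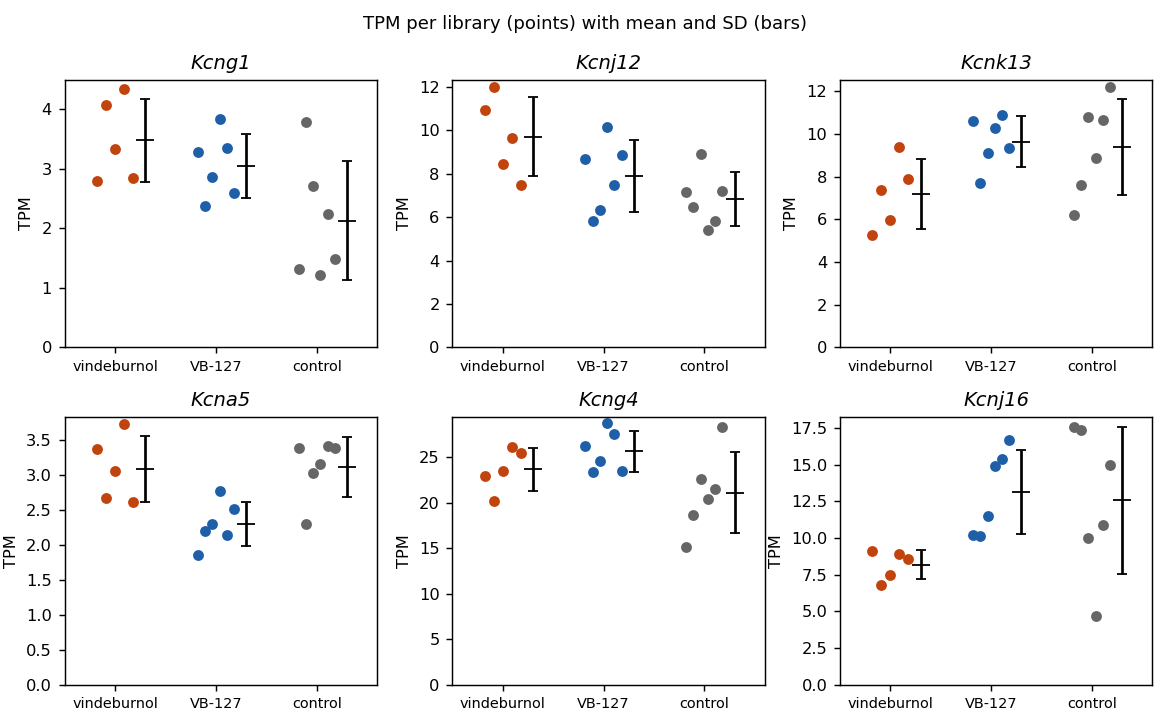
TPM in each library (points) with the group mean and SD (bars) for Kcng1, Kcnj12, Kcnk13, Kcna5, Kcng4 and Kcnj16, with vindeburnol, VB-127 and control from left to right. For Kcnj16 the vindeburnol points, up to 9.13 TPM, lie below the VB-127 points, from 10.1 TPM, and the control points span both.

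Cell composition of the block was followed through marker lists. For 17 pairs of a channel gene and the list of a cell type known to use it, log2(TPM + 1) was correlated with the mean log2(TPM + 1) of the list over the 17 libraries, with permutation tests of 100000 resamples, two-sided and adjusted over the 17 pairs. Pearson's r passed at an adjusted p under 0.05 for 4 pairs, and both r and Spearman's rho for 3.

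Kcnj10 followed the astrocyte list with r = 0.932 (p = 1e-05, the smallest these permutations can give; adjusted p 0.00017) and rho = 0.858 (p = 2e-05, adjusted p 0.00034). Without the 2 libraries farthest from the list's median r was 0.878, and with group means removed it was 0.935. Median-ratio scaling gave 0.671 (adjusted p 0.0256). Kcnj16 followed the same list less tightly, with r = 0.657 (p = 0.00372, adjusted p 0.0174), rho = 0.571 (p = 0.0187, adjusted p 0.053) and 0.443 without the 2 farthest libraries, so that the relation rests in part on those 2. With group means removed r was 0.711 (adjusted p 0.00601), and with median-ratio scaling it was 0.549 and did not pass (adjusted p 0.0755).

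Kcnk13 followed the microglial list with r = 0.764 (p = 0.00045, adjusted p 0.00382) and rho = 0.728 (p = 0.00145, adjusted p 0.00822). Its r was 0.693 without the 2 farthest libraries, 0.764 with group means removed and 0.735 (adjusted p 0.0156) with median-ratio scaling. Kcns3, a silent subunit found in dopaminergic neurons, followed the dopaminergic list with r = 0.662 (p = 0.00409, adjusted p 0.0174) and rho = 0.733 (p = 0.00132, adjusted p 0.00822). Its r was 0.682 without the 2 farthest libraries, 0.606 with group means removed and 0.623 (adjusted p 0.0513) with median-ratio scaling.

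The other 13 pairs did not pass on r. The SK gene Kcnn3 with the dopaminergic list came nearest, at r = 0.517 (permutation p = 0.0332, adjusted p 0.107), while Kcnj6 and Kcnd3 with that list had 0.423 and 0.140. For the inhibitory neuron list, Kcnc1 and Kcnc2 had r of 0.336 and 0.0737 with adjusted p of 0.355 and 0.785. Spearman's rho did pass for Kcnc1, at 0.65 (permutation p = 0.00515, adjusted p 0.0219), but not for Kcnc2, at 0.382 (adjusted p 0.246). Control replicate 6, highest on that list with Slc6a5 at 27.3 TPM, was 1 of the 2 libraries left out, and without them r was 0.634 and 0.538. Median-ratio scaling turned the r of Kcnc1 and Kcnc2 to -0.390 and -0.640. Kcng4 with the Purkinje list had 0.215, Kcnj8 with the pericyte list 0.289, Kcnk6 with the microglial list -0.0715, and Kcna1 and Kcnj2 with the oligodendrocyte list 0.298 and 0.220. Kcnj13 and Kcne2, both under 1 TPM in nearly all libraries, had -0.0940 and 0.0883 with the choroid plexus list.

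**Figure D5:**
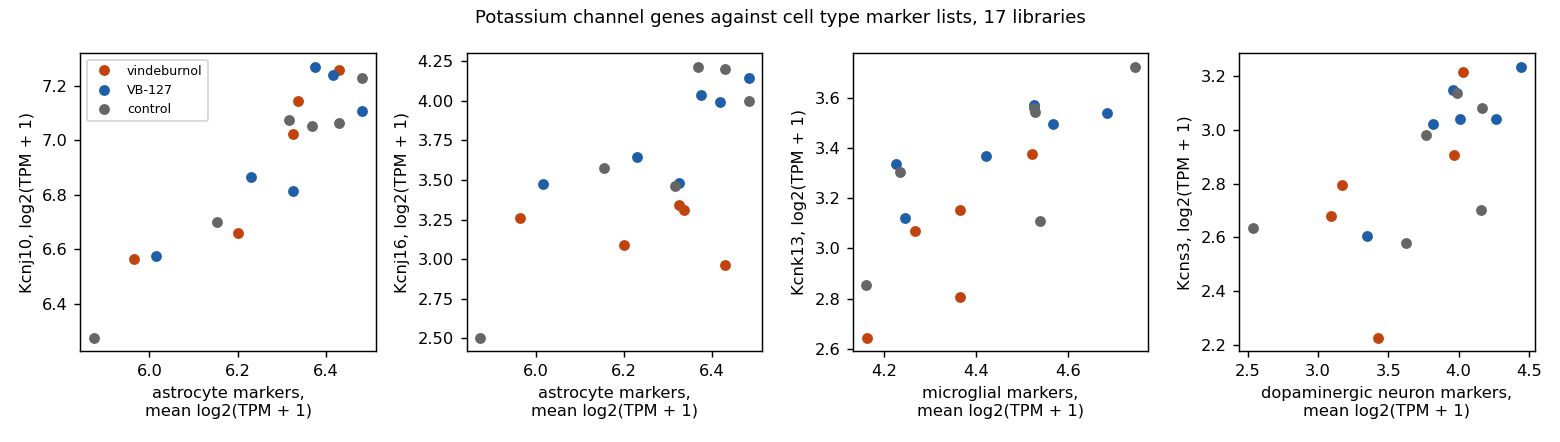
Level of Kcnj10, Kcnj16, Kcnk13 and Kcns3 (y axes, log2(TPM + 1)) against the mean log2(TPM + 1) of astrocyte, microglial or dopaminergic neuron markers (x axes) in 17 libraries coloured by group. Kcnj10 lies closest to a line, at r = 0.932. The 3 groups overlap along each axis except the y axis of Kcnj16, where every vindeburnol point lies below every VB-127 point.

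Of 28 genes outside the family whose products work with these channels or share the potassium gradient, 26 were tested. limma called 0 of them in each of the 3 comparisons. At an unadjusted p under 0.05 there were 2 above and 0 below for vindeburnol against controls, 4 above and 0 below for VB-127 against controls, and 0 above and 1 below for vindeburnol against VB-127. Of all genes, 6.95%, 9.67% and 0.891% lay above and 1.22%, 0.532% and 2.49% below in those 3 comparisons. Differences above 0 were found for 17, 24 and 9 of the 26, beside 69.7%, 79.4% and 38.9% of all genes, with medians of 0.06, 0.11 and -0.06 for the list and 0.079, 0.11 and -0.032 for all genes. The chloride extruder gene Slc12a5 averaged 215 ± 34.3 TPM with vindeburnol and 178 ± 18.9 TPM in controls, a log2 difference of 0.26 (adjusted p 0.530). The pacemaker channel gene Hcn2 averaged 225 ± 18.6 TPM with VB-127 and 194 ± 27.4 TPM in controls, a log2 difference of 0.22 (adjusted p 0.473).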

How the data were processed

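Poly(A) RNA libraries were made with a directional kit, per the labels' protocols, and the submitters' processing notes name STAR, Salmon and the GRCm39 build; their versions, and whether strand was used in counting, are not given in the sources used here. The deposited values are TPM per gene and library, made by the authors. Antisense rows of these genes had medians up to 1.46 TPM and, like overlapping neighbours, could share reads with them.

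Values were analysed as log2(TPM + 1), so differences understate those of low genes. Genes with at least 1 TPM in at least 5 libraries (16153) entered limma 3.58.1 in R 4.3.3, with all 17 libraries in 1 fit and group as its term, eBayes with trend and robust, two-sided, Benjamini-Hochberg adjustment over all genes and calls under 0.05. The fit was run on simulated data drawn independently for each gene and library. Shifts shared by a whole library, as in control replicate 4, were not part of that run, so it does not check the fit under them. Relations used permutation tests in scipy 1.17.1. Library pairs correlated at 0.949 to 0.984, and none was counted as a duplicate.

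Named genes were the 5 with the smallest p per comparison and direction, the highest gene of each subfamily letter, the 10 with the largest spread within groups and those paired with marker lists. Other names mark genes not tested, neighbours on a chromosome or the highest single values. A few items that the rule takes are not reported. The members and lists were chosen with earlier results of these data known. Alternatives covered the pseudocount, filter, scaling, weights, covariates, replicate block and libraries left out. RefSeq names were matched for 92 genes; no coordinates are given.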

Additional observations from a re-analysis of the deposited data

Results flagged for a closer look

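A library stood far from the rest of its own group for 11 of the 135 gene and group combinations examined over 45 potassium channel genes; chance alone marks about 1 in 20. Vindeburnol replicate 4 was high for Kcna3 at 4.52 TPM, against 1.70 to 2.18 TPM in the other vindeburnol libraries, and for Kcnab2 at 259 TPM, against 204 to 215 TPM. Vindeburnol replicate 2 was low for Kcnip3 at 12.0 TPM, against 17.4 to 19.8 TPM.

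VB-127 replicate 2 was low for Kcnn2 at 13.2 TPM, against 17.3 to 18.6 TPM in the other VB-127 libraries, and for Kcnt1 at 36.2 TPM, against 49.5 to 56.3 TPM. VB-127 replicate 3 was low for Kcns3 at 5.08 TPM, against 7.12 to 8.41 TPM, and VB-127 replicate 4 for Kcnh2 at 42.6 TPM, against 47.3 to 49.9 TPM.

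Control replicate 1 was high for Kcnip2 at 23.1 TPM, against 4.11 to 7.68 TPM in the other controls. Control replicate 2 was low for Kcna5 at 2.31 TPM, against 3.04 to 3.42 TPM. Control replicate 4 was low for Kcnc1 at 85.4 TPM, against 114 to 130 TPM, and for Kcnd3 at 13.6 TPM, against 21.6 to 27.5 TPM.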

How the results depend on the processing

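No potassium channel gene was called in any comparison under any alternative run. Of 867 alternative values of the log2 differences of the named genes in 30 gene comparisons, 860 kept their direction. Many of these values could not differ from the main one. A change of filter or of eBayes, a fit of only the 2 groups compared, and leaving out a library of the third group all leave a difference of group means as it was. The count of 860 is therefore no measure of how robust the directions are. The 7 exceptions belonged to VB-127 against controls: Kcna3 at 0.033 and Kcnab1 at 0.11 with marker lists as covariates, Kcnab1 at 0.022 without control replicates 1, 4 and 6 together (chosen after seeing the data), and 4 with 1 library left out, where Kcna3 ranged from -0.30 to 0.00633 and Kcnab1 from -0.22 to 0.059.

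Counts of all genes called moved for vindeburnol against controls to 1 without Bc1, with library weights and with eBayes without trend and robust. For VB-127 against controls the count of 1 became 0 with a pseudocount of 0.1, no filter, covariates, the replicate block or without the 3 controls, 3 with library weights and 2 with only the 2 groups compared; with 1 library left out it was 0 to 1, being 0 without VB-127 replicates 4, 5 or 6 or control replicates 4 or 5. Replicate numbers did not pair the libraries: 1 of 16 same-number pairs had a correlation of deviations over 0.1, and 1 of 17 libraries matched its own number best. The replicate block gave 4 potassium channel genes at an unadjusted p under 0.05 in the VB-127 comparison with controls and 4 between the compounds.

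Counts of potassium channel genes at that unadjusted p also moved between settings. The shares of all genes at that p are given above for the main fit only. Whether these counts moved more than those of all genes was therefore not tested. For vindeburnol against controls the 3 became 7 with median-ratio scaling and with covariates and 6 with quantile normalization and without Bc1, and ranged from 2 to 7 with 1 library left out (7 without vindeburnol replicate 5 or control replicates 2 or 6, 6 without VB-127 replicate 2 or control replicate 3, 5 without vindeburnol replicate 3). For VB-127 against controls the 6 became 2 with median-ratio scaling, quantile normalization, without Bc1 and without the 3 controls, and ranged from 1 without VB-127 replicate 4 to 12 without VB-127 replicate 2 (2 without control replicate 4, 3 without VB-127 replicates 1 or 5 or control replicate 1). For vindeburnol against VB-127 the 3 became 5 with median-ratio scaling, quantile normalization, only the 2 groups compared and without the 3 controls, and 8 with library weights, and ranged from 1 without vindeburnol replicate 1 to 5 without vindeburnol replicate 2. With median-ratio scaling r took the other sign for Kcne2 (-0.0457), Kcnd3 (-0.0930), Kcnc1 (-0.390), Kcnc2 (-0.640), Kcnj2 (-0.327) and Kcna1 (-0.249). The cause was not tested for any of these.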
